A study of Mus musculus with 9 samples.

Results

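Intergenic regions that carried both H3K27ac and H3K4me1 within 100 kb of a protein-coding start were examined in primary oviductal muscle cells by ChIC-Seq, in which an antibody tethers protein A fused to micrococcal nuclease, which frees nearby fragments for sequencing. There were 2453 such regions among 64816 pooled H3K27ac peaks on the 19 autosomes and X, and among 19262 pooled H3K27ac peaks that carried both marks anywhere. They were chosen by the peak calls themselves: a pooled H3K27ac peak had to overlap a peak in each of the 3 H3K27ac replicate lists and a pooled H3K4me1 peak that overlapped a peak in each of the 3 H3K4me1 lists. It also had to lie outside every protein-coding gene body and every window of 1 kb around an annotated transcript start. The presence of both marks is therefore a property of the choice and not a result.

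The cells came from oviducts of WT mice on D2 of pregnancy, 8 to 12 weeks of age per the labels, after mating with a stud male. Oviducts were digested with trypsin, collagenase and dispase, the cells were filtered and plated for some hours in serum-containing medium, and 50000 fixed cells entered each library. Smooth muscle cells were obtained by digestion and filtering, with no sort on a marker described. Each of H3K27ac, H3K4me1 and IgG had 3 of the 9 libraries, and the IgG libraries served as the background of the peak calls. Treatment libraries held 40551842 to 78891920 fragments and IgG libraries 3110985 to 3713369. It was not stated whether replicates came from separate animals, so that p-values measure the spread between these lists only.

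Enhancers are stretches of DNA that bind transcription factors and act on promoters at a distance. Their flanking nucleosomes commonly carry H3K4me1, and H3K27ac, laid down by the acetyltransferases p300 and CBP, marks the active ones. In the oviduct the muscle layer moves the embryo toward the uterus during early pregnancy, under the influence of prostaglandins and ovarian steroids.

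The first set of sequences shows the centres of 3 regions, the 300 bases around the midpoint on the plus strand of GRCm38 as given by RefSeq. Regions were ranked by the lowest percentile of fold enrichment that a region reached in any of its 6 lists. By this rank the Cwc22 region was first of all regions, the Synpo2 region first of those near a smooth muscle gene and the Jun region first of those near a gene of the AP-1 list. Capitals mark matches, on either strand, to the TEAD letters GGAATG, the GATA letters AGATAA and the RUNX letters TGTGGT. The centres of the Synpo2 and Jun regions held no match to these, to the AP-1 letters TGANTCA or to the E-box letters CAGCTG. Each is named after the protein-coding gene with the nearest start, an assignment by distance alone.
Cwc22, chr2:78023327-78023626: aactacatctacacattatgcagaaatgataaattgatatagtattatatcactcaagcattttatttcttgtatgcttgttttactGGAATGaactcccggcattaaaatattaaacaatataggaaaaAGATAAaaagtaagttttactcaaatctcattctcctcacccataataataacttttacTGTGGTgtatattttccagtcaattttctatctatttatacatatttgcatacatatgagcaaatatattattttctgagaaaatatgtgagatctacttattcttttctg
Synpo2, chr3:123245092-123245391: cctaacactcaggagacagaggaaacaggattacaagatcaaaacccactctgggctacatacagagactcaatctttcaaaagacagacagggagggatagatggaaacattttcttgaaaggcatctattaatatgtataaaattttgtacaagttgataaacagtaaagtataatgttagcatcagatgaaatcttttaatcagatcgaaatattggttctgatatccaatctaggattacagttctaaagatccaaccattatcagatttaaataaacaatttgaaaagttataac
Jun, chr4:95106302-95106601: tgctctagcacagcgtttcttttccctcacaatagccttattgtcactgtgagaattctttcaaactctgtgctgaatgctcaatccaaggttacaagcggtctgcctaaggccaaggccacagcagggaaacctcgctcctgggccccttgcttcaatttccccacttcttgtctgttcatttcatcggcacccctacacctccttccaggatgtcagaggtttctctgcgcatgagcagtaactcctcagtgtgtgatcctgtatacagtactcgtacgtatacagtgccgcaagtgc

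The second set shows the AP-1 letters, which were more frequent at the region centres than in other intergenic sequence, as given after it. Capitals mark TGANTCA, with 75 bases on either side of its middle base. AP-1 dimers of FOS and JUN proteins usually bind TGACTCA or TGAGTCA, and TGANTCA also takes in TGAATCA and TGATTCA. The matches at Klf6, Col1a2 and Bmpr1a were of these last forms, and the forms were not counted apart. The 5 sequences were chosen after the values were seen, as the region ranked highest in this way with a match in its central 300 bases near a gene of each of 5 gene lists. Matches were held by 2 of 16 regions near prostaglandin genes, 5 of 28 near mesenchymal factors and 2 of 17 near AP-1 list genes. The same was true of 7 of 54 near matrix genes and 2 of 21 near growth factor genes, beside 15.7% of all regions. It was true of 0 of 3 near smooth muscle genes and 0 of 6 near steroid receptor genes. Among the marker lists of other cell types, 1 of the 6 regions near endothelial genes, at Tek, also held a match. The Ptger4 sequence held 2 matches and the other 4 held 1.
Ptger4, chr15:5335903-5336053: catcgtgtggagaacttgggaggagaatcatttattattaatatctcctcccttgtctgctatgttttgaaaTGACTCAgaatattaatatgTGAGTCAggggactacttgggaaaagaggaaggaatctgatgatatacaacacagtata
Twist2, chr1:91858191-91858341: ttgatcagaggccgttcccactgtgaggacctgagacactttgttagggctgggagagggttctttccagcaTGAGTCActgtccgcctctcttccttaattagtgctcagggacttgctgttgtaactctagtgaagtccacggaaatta
Klf6, chr13:5827473-5827623: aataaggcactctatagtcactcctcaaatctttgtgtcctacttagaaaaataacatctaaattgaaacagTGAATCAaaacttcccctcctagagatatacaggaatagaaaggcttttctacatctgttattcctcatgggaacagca
Col1a2, chr6:4418147-4418297: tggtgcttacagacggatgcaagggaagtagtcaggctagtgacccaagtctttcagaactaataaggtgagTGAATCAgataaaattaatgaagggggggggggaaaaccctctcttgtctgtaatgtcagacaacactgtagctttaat
Bmpr1a, chr14:34508190-34508340: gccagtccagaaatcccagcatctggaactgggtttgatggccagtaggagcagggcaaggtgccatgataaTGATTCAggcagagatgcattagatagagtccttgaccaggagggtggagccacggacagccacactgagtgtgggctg

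The AP-1 letters were present in the central 300 bases of 386 of the 2453 regions, or 15.7%. They were present in 8.80% of 1340542 windows that tiled the intergenic sequence in which such regions could lie, which are called eligible windows here, and in 7.85% of 32585 RefSeq promoters of 300 bases. Double-marked regions inside genes held them in 13.1% and those in gene deserts, more than 100 kb from a coding start, in 15.3%. Among regions and windows with a GC content between 39.8% and 46.8%, the shares were 15.3% of 1227 regions and 9.19% of 589288 windows. AP-1 letters were thus more frequent at all 3 kinds of double-marked region than in the eligible windows. Regions with a match are listed by presence of letters only, and binding was not measured.

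Letters rich in G and C were more frequent at the regions near genes than at both other kinds of double-marked region, which also had a lower GC content, with a median of 40.7% inside genes and 39.7% in deserts against 42.8% near genes. The GC box GGGCGG, the core site of SP and KLF factors, was present at 5.79% of the regions, against 2.77% inside genes, 2.2% in deserts and 2.73% of the eligible windows. The ETS letters CCGGAA were present at 3.87%, against 2.42%, 2.10% and 2.35% in the same order. The core of the CTCF site, the sequence bound by the insulator protein CTCF, was found at 19 regions, or 0.775%, against 0.187% of the eligible windows. RefSeq promoters held the GC box in 35.9% and the ETS letters in 15.0%, far above the regions. The GC box was still present at 3.67% of the regions and 2.19% of the windows within the common range of GC content. The part of GC content in the difference between the 3 kinds of region was not tested.

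Sites of factors that drive muscle genes were not increased to the same extent. The CArG box, bound by serum response factor at smooth muscle genes, was present at 34 regions, or 1.39%, against 1.82% of the eligible windows. MEF2 sites were present at 6.73% against 6.16%. The E-box CAGCTG, a site of basic helix-loop-helix factors such as TWIST and TCF21, was present at 15.2% against 10.9%. TEAD letters were present at 17.6% against 16.0% and RUNX letters at 20.4% against 20.9%, while GATA letters were present at 20.8% against 18.4% and the FOX letters TGTTTAC at 5.83% against 4.24%. Within the common range of GC content the TEAD order turned, to 17.4% of the regions against 17.8% of the windows, while the order of the other motifs of this paragraph stayed. The E-box and AP-1 letters read the same on either strand, and a window was counted once however many matches it held. Matches of different motifs can share bases, and how often they did was not tested.

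**Figure D1:**
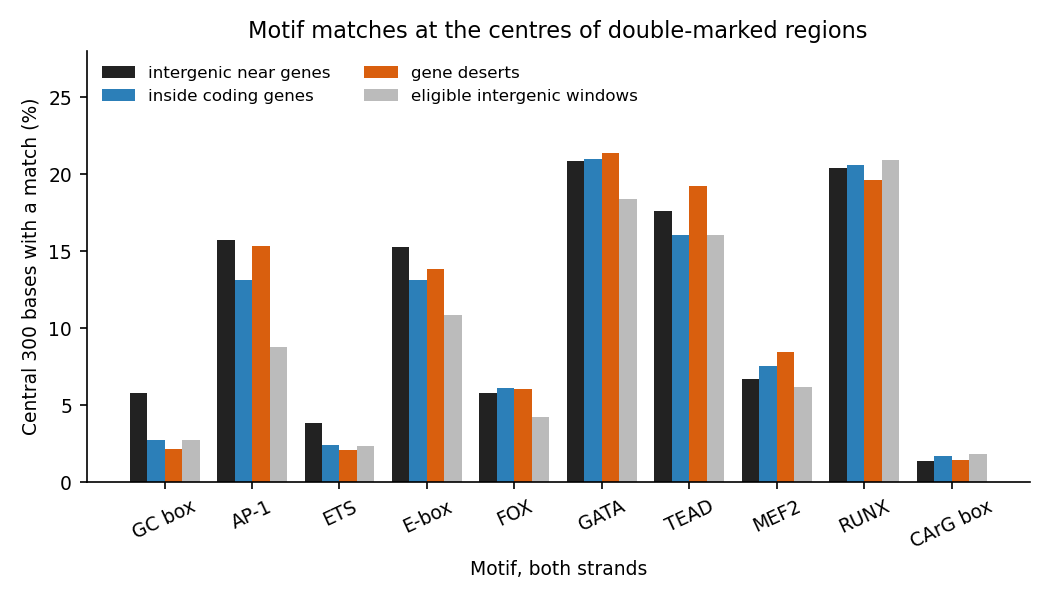
The share (%) of central 300-base windows with at least 1 match on either strand is plotted for each motif, in regions near genes, inside genes and in gene deserts and in the eligible intergenic windows. The AP-1 bars of all 3 region sets (13.1% to 15.7%) stand above the window bar (8.80%), whereas the GC box bar of the regions near genes (5.79%) stands above the other 3.

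The regions covered 5.61 Mb in all. Their median width was 1782 bp, with a range from 162 to 24982 bp. The median GC content was close to the 42.4% of the eligible windows, but the median CpG density was 8.97 per kb against 6.0. Double-marked regions inside genes had 7.37 CpG per kb and those in deserts 6.03. Repeats, read from the lower-case letters of the reference, made up a median of 18.6% of a region and 30.2% of a window, and 52 regions (2.12%) were more than 50% repeat against 31.7% of the windows. The regions were longer than the windows of 500 bp. The part of width and of the uniqueness of read alignment in this was not tested.

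Regions were sparse close to coding starts. In the first 5 kb from a start there were 132 regions, 5.38% of all against 9.08% of the windows, at a density of 2.17 per Mb. The density was 3.41 per Mb from 5 to 10 kb, 3.55 from 10 to 20 kb, 3.92 from 20 to 50 kb and 3.99 from 50 to 100 kb. The median distance was 32.7 kb for regions and 29.2 kb for windows. A region lay upstream of its gene in 1704 cases, or 69.5%, where windows gave 67.6%. A region had to lie outside the 1 kb exclusion over its whole width, and the part of region width in the lower density next to starts was not tested.

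The midpoint fell inside an annotated noncoding gene in 322 regions, or 13.1%, against 10.9% of the windows. Of these, 161 lay in a long intergenic noncoding RNA, 78 in an antisense gene and 75 in a processed transcript. Among the regions described below, midpoints lay in Ptgs2os near Ptgs2, in Emx2os near Emx2 and in Junos near Jun.

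The position of the replicate peaks around the regions is given as a description, since the same lists chose the regions. A peak covered the midpoint in 74.8%, 75.5% and 72.7% of regions in H3K27ac replicates 1, 2 and 3, and in 75.6%, 79.3% and 77.9% in H3K4me1 replicates 1, 2 and 3. At 1 kb from the midpoint, averaged over both sides, the share was 33.9% to 42.0% for H3K27ac and 43.2% to 47.6% for H3K4me1. At 5 kb it was 12.5% to 18.5% for H3K27ac and 15.2% to 16.8% for H3K4me1, beside 2.31% to 3.85% of eligible windows covered in the same lists. Because the choice required overlap only, a replicate peak did not have to reach the midpoint. In 2371 regions every list had a peak inside the region itself, and in the other 82 at least 1 H3K4me1 list met the pooled H3K4me1 peak only outside it.

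**Figure D2:**
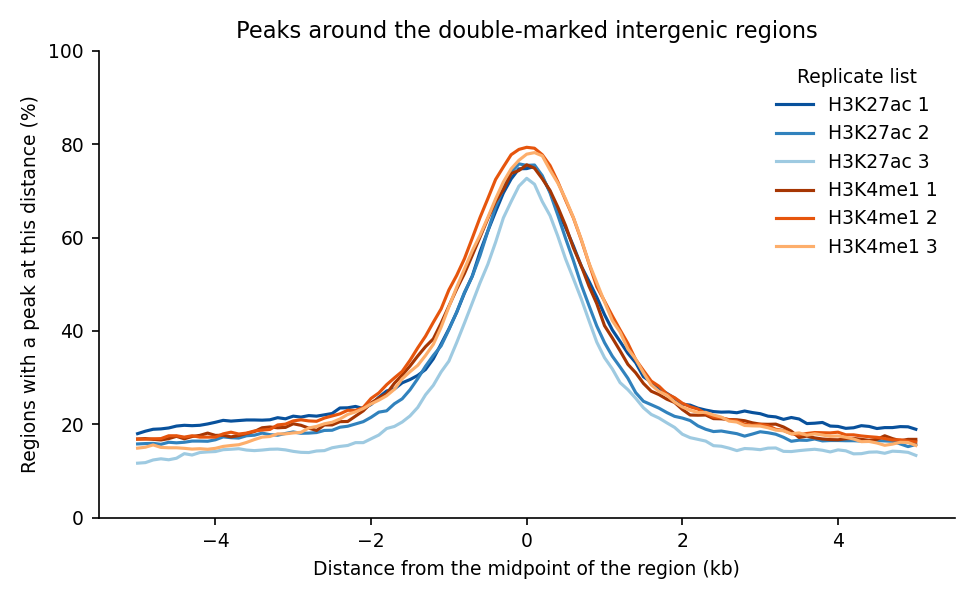
The share of the 2453 regions with a peak (%) is plotted against distance from the region's midpoint (kb), with 1 line for each of 6 replicate lists. All lines are highest within 100 bp of the midpoint, where they are between 72.7% and 79.3% at the midpoint itself. Averaged over both sides, they fall to between 33.9% and 47.6% at 1 kb, where single lines of the marks cross.

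Coverage, the mean fragment pileup of a peak divided by the mean over the genome, was similar in the replicates. Its median over the regions was 7.49, 7.02 and 6.94 times the genome mean in H3K27ac replicates 1, 2 and 3, and 7.66, 7.42 and 7.86 times in H3K4me1 replicates 1, 2 and 3. Double-marked regions inside genes had medians of 5.85, 6.27 and 6.25 for H3K27ac, and those in deserts had 5.40, 6.0 and 5.98. For H3K4me1 the medians were 7.38, 7.24 and 7.58 inside genes and 6.68, 6.53 and 6.89 in deserts. Regions near genes had the highest median coverage in each of the 6 lists. The median fold enrichment over local background was higher near genes than inside genes for H3K27ac, at 1.68 to 1.73 against 1.62 to 1.63, but nearly equal for H3K4me1, at 1.74 to 1.76 for both. These are values of the calls that chose the regions and carry no test.

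**Figure D3:**
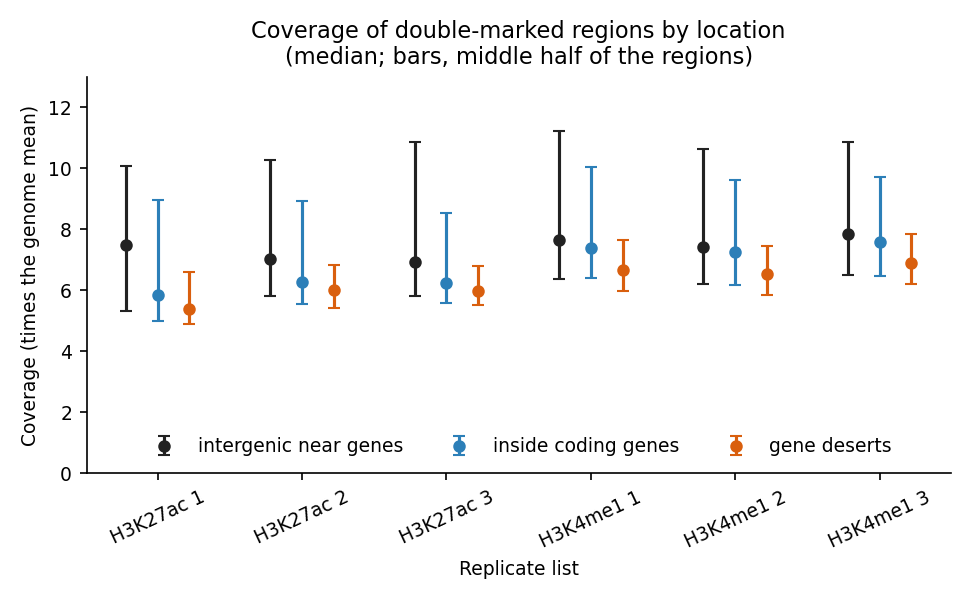
Points give the median coverage (times the genome mean) of double-marked regions near genes, inside genes and in gene deserts in each replicate list, and bars run from the lower to the upper quartile. The median of the regions near genes is the highest of the 3 in every list, and the quartile ranges of the 3 locations overlap in every list.

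Coverage was graded over the regions. It was over 10 times the genome mean in all 6 lists in 361 regions, or 14.7%, and in none of the lists in 1384, or 56.4%. Between these, 143 regions were over 10 times in 1 list, 112 in 2, 113 in 3, 135 in 4 and 205 in 5. The rank correlation of coverage across regions was 0.807 to 0.811 between H3K27ac replicates, 0.823 to 0.863 between H3K4me1 replicates and 0.735 to 0.793 between lists of different marks, over at least 2383 regions. These are descriptions over regions that share libraries, neighbouring peaks and IgG controls.

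One region stood far above the others. The region 37.5 kb downstream of the Rpusd4 start (chr9:35305225-35305575), which lay in the noncoding gene Gm33838 and was 96.0% repeat, had a coverage of 680, 695 and 695 times the genome mean in H3K27ac replicates 1, 2 and 3. In H3K4me1 replicates 1, 2 and 3 it was 555, 426 and 423. The fold enrichment over local background in the deposited calls was 3.30 to 4.04 for H3K27ac and 1.91 to 2.56 for H3K4me1, so that the background at this position was high as well. The next region by its lowest value, near Azin1, had 15.5, 17.6 and 17.5 for H3K27ac and 17.2, 15.3 and 15.5 for H3K4me1.

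The order by lowest percentile of fold enrichment differed in part from that by coverage, and the regions that came first in it are given here. The region upstream of Cwc22, which encodes a spliceosome-associated protein, lay at chr2:78019807-78027145, 77.1 kb from the start. Its coverage was 13.4, 14.0 and 12.6 times the genome mean for H3K27ac and 20.7, 21.4 and 21.8 for H3K4me1 in replicates 1, 2 and 3, so that all 3 H3K4me1 values were above all 3 H3K27ac values. A further Cwc22 region, at chr2:77970508-77995489, was the widest of all at 24982 bp, with 9.73, 10.6 and 10.6 for H3K27ac and 13.4, 18.3 and 18.4 for H3K4me1. The region 55.5 kb upstream of Ezh2, the catalytic subunit of the Polycomb complex that methylates H3K27, lay at chr6:47649911-47651670 with 20.2, 17.6 and 18.3 for H3K27ac and 16.0, 17.3 and 15.1 for H3K4me1. At Ezh2 the H3K27ac values thus lay above the H3K4me1 values.

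The next regions in this order lay near Rnf19b, an E3 ubiquitin ligase, Ahnak, a large scaffold protein, and Itgb1, the beta 1 integrin that links muscle cells to matrix. The Rnf19b region had 14.8, 14.9 and 15.5 for H3K27ac and 15.2, 14.4 and 13.1 for H3K4me1. The Ahnak region, 7.05 kb upstream, had 17.4, 17.6 and 16.6 for H3K27ac and 15.2, 14.7 and 14.8 for H3K4me1. The Itgb1 region, 7.56 kb upstream, had 10.8, 10.4 and 9.68 for H3K27ac and 9.48, 10.8 and 9.84 for H3K4me1. Values at Itgb1 were lower than at Ahnak in every list although both ranked high, since the rank used fold over local background. The remaining regions of the first 10 lay near Ckb, the brain-type creatine kinase, Lrrc74a, Bach2, Chd2, a chromatin remodeler, and Krt78, with coverage from 10.4 to 21.2 over all lists.

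Clusters of regions were found near a limited number of genes. Of 21670 protein-coding genes, 1563 (7.21%) were the nearest gene of at least 1 region, 498 of at least 2 and 44 of at least 5. Joined across gaps of up to 12.5 kb, the regions formed 1915 runs, of which 369 held 2 or more regions and 907 regions in all. Dcn, which encodes the collagen-binding proteoglycan decorin, had the most regions at 15. All 15 lay upstream, from 10.7 to 96.4 kb from the start, and together covered 56.4 kb. The 10 closest to the gene formed the largest run at chr10:97425831-97472493, and 5 others a further run at chr10:97372684-97411503. Median coverage over the Dcn regions was below the median over all regions in every list. It was 5.66, 6.09 and 6.07 for H3K27ac and 6.26, 6.48 and 6.61 for H3K4me1 in replicates 1, 2 and 3.

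The Dcn regions differed among themselves. The region closest to the start, at chr10:97465357-97472493, ranked highest by fold in its lowest list, with 8.47, 7.42 and 7.62 for H3K27ac and 7.29, 7.82 and 8.55 for H3K4me1. The widest, at chr10:97372684-97393825 and 21142 bp long, had 6.42, 7.29 and 6.53 for H3K27ac and 6.77, 7.15 and 7.44 for H3K4me1. Neighbouring regions can share 1 broad replicate peak, and such regions are not independent measurements. Lum, which encodes lumican and lies beyond Dcn, had 3 regions of its own.

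Rgs2, which encodes a protein that dampens Gq-coupled receptor signaling in smooth muscle, had 13 regions. Of these, 9 formed a run at chr1:143910022-143964127, downstream of the gene. The highest-ranked, at chr1:143913380-143922689, had 7.37, 7.56 and 8.67 for H3K27ac and 7.71, 8.36 and 8.41 for H3K4me1. The neighbouring Rgs13 had 7 regions. Gm11146 also had 13, Otogl, known from the inner ear, had 10, and Klf6, a zinc-finger factor induced early by growth signals, had 9. Tes, which encodes a focal adhesion protein, had 8, and Irf2bp2, Col3a1, Gm34302 and Itprid2 had 7 each. The Irf2bp2 regions were the highest of these genes by median coverage, with 11.2, 12.0 and 12.5 for H3K27ac and 11.8, 13.7 and 12.0 for H3K4me1. The promoters of Dcn, Rgs2, Gm11146, Tes, Rgs13, Col3a1 and Itprid2 had a peak in all 6 lists, those of Otogl and Irf2bp2 in 5, that of Klf6 in 3 and that of Gm34302 in none.

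Gene lists for this tissue were then examined. A gene with more intergenic sequence around it has more chance of being the nearest to a region, and the lists differ in this. The counts are therefore given beside 7.21% of all coding genes and, as density, beside 3.66 regions per Mb of eligible sequence over all genes. The lists were chosen with earlier results of these data known, so they describe and do not test.

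Matrix genes held the most. Of 24 genes for matrix proteins and their enzymes, 15 (62.5%) had a region, with 54 regions at 29.1 per Mb. After Dcn came Col3a1, the fibrillar collagen of compliant tissue, with 7, Postn, which encodes periostin, with 4, and Col1a1, Col1a2, Col6a1, Fn1, Lox, Lum and Tnc with 3 each. The first by lowest fold percentile was the Col6a1 region at chr10:76698095-76702749, 25.8 kb downstream of the start, with 10.9, 11.1 and 10.1 for H3K27ac and 14.3, 11.9 and 12.1 for H3K4me1. The Col1a1 region at chr11:94872266-94875219, 62.5 kb upstream, had 13.7, 13.4 and 12.9 for H3K27ac and 11.9, 15.2 and 11.7 for H3K4me1. Without Dcn, 14 of the genes and 39 of the regions remained. The promoters of 14 of the 24 genes had a peak in all 6 lists, against 24.5% of all coding genes.

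Transcription factors of mesenchyme and the Müllerian duct, the embryonic source of the oviduct, were also well represented. Of 30 genes, 15 (50.0%) had a region, with 28 regions at 10.4 per Mb. Their intergenic surroundings were the longest of all lists, with a median of 93.75 kb. By density the list was below the prostaglandin genes (13.9 per Mb) and the early response genes (15.4 per Mb). Hand2, a progesterone-responsive factor of the uterus, and Nr2f2, which encodes COUP-TFII, had 4 each, Emx2 and Zeb2 had 3 each, and Tcf21, Twist2 and Wt1 had 2 each. The region nearest to Foxl2, 7.73 kb downstream of its start, had 9.96, 12.3 and 12.1 for H3K27ac and 13.6, 11.7 and 11.0 for H3K4me1. The Twist2 region 86.5 kb upstream had 9.92, 9.73 and 13.7 for H3K27ac and 10.8, 10.7 and 13.8 for H3K4me1, with replicate 3 the highest for both marks. All 4 Hand2 regions lay 32.8 to 63.8 kb downstream. The first of them, at chr8:57353147-57354328, had 8.44, 8.31 and 5.98 for H3K27ac and 7.01, 8.67 and 7.99 for H3K4me1.

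Of 22 genes of prostaglandin synthesis and reception, 6 (27.3%) had a region, with 16 regions at 13.9 per Mb. Ptgs2, the inducible cyclooxygenase, had 5, Hpgd, the dehydrogenase that inactivates prostaglandins, had 4, and Ptger4, the EP4 receptor for PGE2, had 4. Pla2g4a, the phospholipase that releases arachidonic acid, Ptgs1 and Ptger2 had 1 each. The Ptgs2 region 11.1 kb upstream, at chr1:150088343-150089620, had 9.80, 11.6 and 9.58 for H3K27ac and 10.2, 9.30 and 8.27 for H3K4me1. It was higher than each of the other 4 Ptgs2 regions in every list but H3K4me1 replicate 1, where the region 55.5 kb upstream had 10.8. The Hpgd region 9.66 kb upstream had 7.94, 7.16 and 7.26 for H3K27ac and 7.43, 7.02 and 8.50 for H3K4me1. The promoters of 5 of the 22 genes had a peak in all 6 lists, a share near that of all coding genes (24.5%).

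Smooth muscle genes had 1 region each where they had any. Of 16 contractile genes, 3 (18.8%) had a region, at 6.83 per Mb. The region 9.09 kb upstream of Synpo2, which encodes an actin-bundling protein of the Z-disc, had 8.89, 7.64 and 8.17 for H3K27ac and 8.45, 8.58 and 8.92 for H3K4me1. That 2.77 kb upstream of Smtn, which encodes smoothelin, had 9.84, 9.15 and 12.0 for H3K27ac and 10.5, 10.3 and 11.3 for H3K4me1. The region 9.63 kb upstream of Acta2, the smooth muscle actin, had 6.57, 7.29 and 6.94 for H3K27ac and 7.99, 6.53 and 6.75 for H3K4me1. The promoters of these 3 genes and of 4 others of the list had a peak in all 6 lists, against 24.5% of all coding genes. Tagln and Tpm2 had a promoter peak in 5 lists and Cnn1, Mylk and Myl9 in 3. Lmod1 and Myocd had one in 2, and Actg2 and Myh11 in 1. None of these genes had a region. The contractile genes had the shortest intergenic surroundings of all lists, a median of 13 kb against 79 kb for the matrix genes.

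Among early response genes, 6 of 16 (37.5%) had a region, with 17 regions at 15.4 per Mb, and 9 of the 17 belonged to Klf6. The Jun region at chr4:95103931-95108972, 54.2 kb upstream, had 12.9, 10.6 and 13.8 for H3K27ac and 12.8, 12.3 and 14.1 for H3K4me1. The region 19.4 kb upstream of Fos had 14.6, 14.8 and 14.9 for H3K27ac and 13.7, 11.8 and 11.4 for H3K4me1, and that 11.8 kb downstream of its start had 15.5, 16.2 and 19.4 for H3K27ac and 13.1, 12.5 and 15.9 for H3K4me1. At the upstream Fos region all H3K27ac values lay above all H3K4me1 values. The widest Klf6 region, 17155 bp at chr13:5835263-5852417, had 10.2, 10.3 and 9.72 for H3K27ac and 8.69, 8.14 and 8.13 for H3K4me1.

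Steroid receptors and their partners had a region at 4 of 12 genes (33.3%), at 8.65 per Mb. Esr1, the estrogen receptor alpha, and Ncoa1 had 2 each, and Esr2 and Pgr, the progesterone receptor, had 1 each. The Esr1 region 21.1 kb upstream had 8.17, 6.36 and 10.9 for H3K27ac and 7.29, 7.51 and 12.0 for H3K4me1, so that replicate 3 was the highest for both marks. The other, 27.5 kb upstream, had 8.06, 10.2 and 10.4 for H3K27ac and 5.98, 8.05 and 9.43 for H3K4me1, and was the higher of the pair in replicate 2 of both marks. The Pgr region was 252 bp wide, 67.5 kb upstream, with 5.66, 5.69 and 5.20 for H3K27ac and 5.23, 4.96 and 5.50 for H3K4me1. Values at Pgr were below the median of the regions in all 6 lists. Of 30 genes of growth factor and morphogen signaling, 12 (40.0%) had a region, at 9.51 per Mb, with Igf1, the insulin-like growth factor, at 5 regions, all upstream.

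Markers of other cell types were examined to check the labelled cell type. None of 16 blood cell genes had a region, and none had a promoter peak in all 6 lists, though Spi1 had one in 5. Of 16 epithelial genes, 2 had a region, Krt8 and Krt18, which lie next to each other. The Krt8 region had 13, 13.4 and 12.8 for H3K27ac and 11.3, 11.7 and 12.9 for H3K4me1, and no epithelial gene had a promoter peak in all 6 lists, though Muc1 had one in 5 and Krt8 and Cldn3 in 4. Of 12 endothelial genes, 4 (33.3%) had a region, with 6 regions at 8.18 per Mb, near Emcn, Cdh5, Kdr and Tek. Both values were above those of the contractile genes, at 18.8% and 6.83 per Mb. The Cdh5 region, 78.8 kb upstream of the gene for vascular cadherin, had 10.4, 10.7 and 11.3 for H3K27ac and 12.0, 10.6 and 11.0 for H3K4me1. No endothelial gene had a promoter peak in all 6 lists, though Emcn had one in 5 and Tek in 4. Of 16 liver and neuron genes, 1 had a region, Neurod1, at 55.1 kb, and 2 others, the neuronal genes Syt1 and Dlg4, had a promoter peak in all 6 lists, while the liver genes Alb and Ttr had one in 4. A promoter peak in all 6 lists is a strict measure. Genes of the other lists missed it too, as Fos had one in 4 and Fn1, Hand2, Jun, Klf6 and Lox in 3. The part of endothelial, epithelial or blood cells in the regions was not tested.

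**Figure D4:**
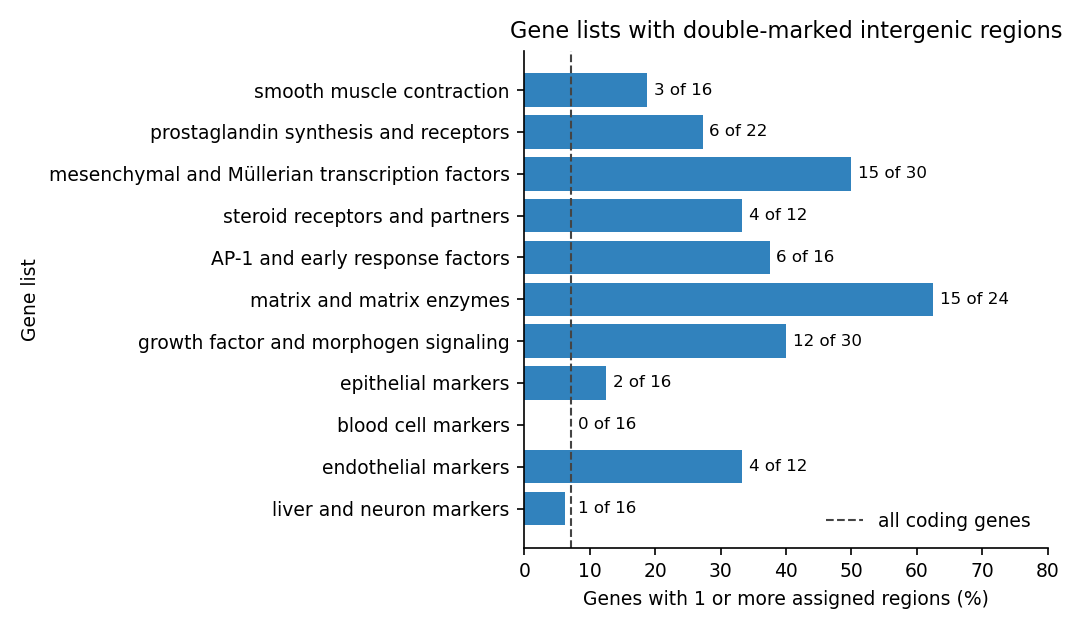
Bars give the share (%) of genes in each of 11 lists that were the nearest protein-coding gene of at least 1 region, with the counts beside them, and the dashed line gives 7.21%, the share over all 21670 coding genes. Matrix genes (15 of 24) are the highest and blood cell genes (0 of 16) the lowest.

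Promoter peaks were then compared between genes with and without a region. A promoter was the window of 1 kb on either side of a coding start. No peak in a promoter was needed for a region to be chosen, but the choice left out pooled H3K27ac peaks that reached the 1 kb window of an annotated start. Replicate peaks and H3K4me1 peaks that met a region could still reach a promoter, and how often they did was not tested. The lists compared here had also chosen the regions, so that the comparison is not independent of the choice. The share of genes with a promoter peak was 79.3%, 77.5% and 77.4% among the 1563 genes with a region in H3K27ac replicates 1, 2 and 3, and 53.9%, 52.7% and 51.6% among the 20107 others. In H3K4me1 replicates 1, 2 and 3 it was 69.2%, 66.5% and 65.5% against 44.0%, 40.4% and 40.0%. The mean difference was 25.4 percentage points, and genes with a region were higher in 6 of 6 lists. An exact sign-flip test over the 6 lists, two-sided, gave p = 0.0313, the smallest that 6 lists allow. Adjusted over the 5 tests made here by the Benjamini-Hochberg method, p was 0.156, which does not pass 0.05. The lists come from the same kind of cells and share IgG libraries and genes, and were not independent of each other.

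A promoter peak in all 6 lists was found for 724 genes with a region, or 46.3%, and for 22.8% of those without, against 24.5% of all genes. Among genes with 1 region the share was 44.2%, with 2 it was 50.9%, with 3 to 4 it was 49.1% and with 5 or more it was 56.8%. Most of the difference was thus reached with 1 region. No promoter peak in any list was found for 10.7% of genes with a region and 33.9% of those without. Of the 18135 genes with eligible sequence around them, those with a region had a median of 67 kb of it and those without had 18 kb. Averaged over 5 groups of these genes of about equal size by this length, the difference was 27.6 percentage points. The group with the least sequence, 0.5 to 6 kb a gene, held only 16 genes with a region, and its difference ran from -2.78 percentage points in H3K27ac replicate 2 to 25.8 in H3K4me1 replicate 3. In the other 4 groups the difference was between 25.4 and 36.1 percentage points in every list. Counting every coding gene within 100 kb of a region, not the nearest alone, gave 18.3 percentage points.

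**Figure D5:**
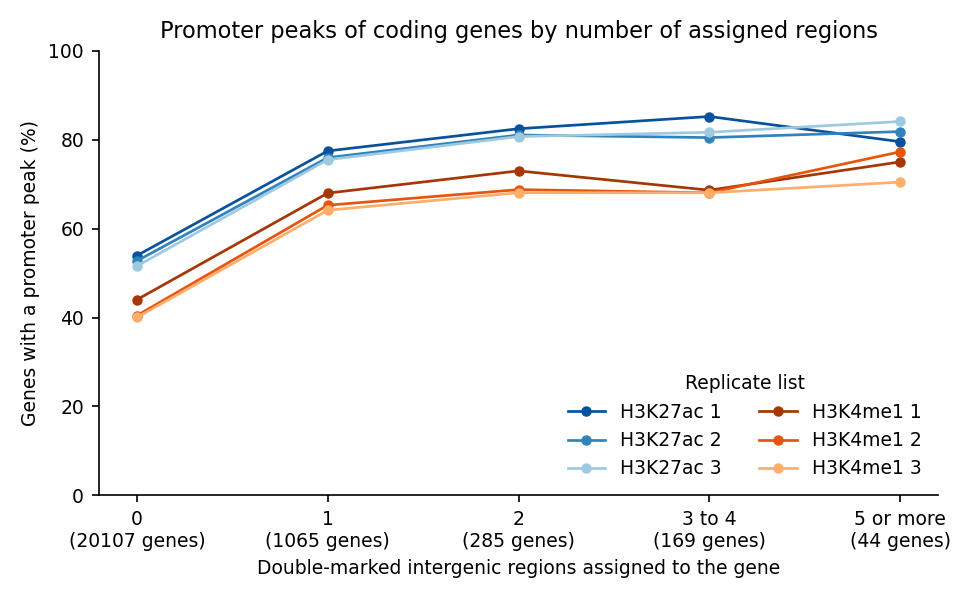
Genes with a promoter peak, as a share (%) of protein-coding genes, are plotted against the number of double-marked intergenic regions assigned to the gene, with 1 line for each replicate list and the number of genes under each point. Every line rises from genes with no region (40.0% to 53.9%) to genes with 1 region (64.1% to 77.5%) and changes less after that.

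For H3K27ac the difference was 25.3 ± 0.487 percentage points and for H3K4me1 25.6 ± 0.495 percentage points (SD, n = 3 each). The difference of -0.250 between the marks was within the spread of the replicates, with p = 0.6 in an exact permutation test, two-sided, of 3 lists against 3, which cannot go below 0.1. With peaks of a −log10 p of at least 1.3 only, it was 11.9 percentage points (exact permutation p = 0.1), and with a window of 3 kb around starts -2.90 (exact permutation p = 0.2).

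To ask how well intergenic regions recur in a list that did not enter their choice, regions were chosen without 1 list at a time and looked up in it. Regions were peaks of 1 of the other 2 replicates of the mark that overlapped the other and all 3 lists of the other mark, giving 2886 to 3376 intergenic regions near genes per list. Of these, 73.3%, 84.8% and 73.5% had a peak in the left-out H3K27ac replicates 1, 2 and 3, a mean of 77.2% ± 6.60 (SD, n = 3). In the left-out H3K4me1 replicates 1, 2 and 3 the shares were 94.0%, 94.1% and 90.8%, a mean of 92.9% ± 1.89 (SD, n = 3). The marks did not overlap, the difference was -15.8 percentage points, and an exact permutation test, two-sided, gave the minimum of 0.1 for this design (adjusted p = 0.250). The order reversed, to 1.36 percentage points, when only peaks with a −log10 p of at least 1.3 were kept. With regions chosen by the lists of their own mark only, the marks overlapped, at 53.7% to 66.2% for H3K27ac and 60.8% to 84.5% for H3K4me1 (exact permutation p = 0.2). H3K4me1 replicates 2 and 3 held 78891920 and 64063996 fragments, against 40551842 to 42040809 in the H3K27ac replicates. H3K4me1 replicates 1 and 2 were called against the same IgG library, so that leaving out either kept its control in the choice. Recoveries of replicates 2 and 3 of a mark start from the same replicate 1 peaks, so the values of a mark are not independent. The part of depth and IgG was not tested.

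Recovery of regions near genes was compared with that of the other double-marked distal regions. Mean recovery inside genes was 73.9% ± 5.21 with H3K27ac and 96.0% ± 0.623 with H3K4me1, and in deserts 75.6% ± 4.2 and 94.8% ± 1.61 (SD, n = 3 each). Over the 6 lists, regions near genes exceeded those inside genes by a mean of 0.129 percentage points, in 3 of 6 lists (exact sign-flip p = 0.844, adjusted p = 0.844). Against those in deserts the mean difference was -0.140 percentage points, with regions near genes higher in 2 of 6 lists (exact sign-flip p = 0.844, adjusted p = 0.844). Both tests treat the lists as independent, although recoveries of replicates 2 and 3 of a mark share their starting peaks. The mean near 0 against regions inside genes joined differences of opposite sign, as regions near genes were higher by 2.18 to 4.88 percentage points in the 3 H3K27ac lists and differed by -4.50 to -2.10 in the 3 H3K4me1 lists.

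The regions at the limits of the choice differed in their values. The included region closest to the limit of 100 kb, at 99940 bp, also lay close to the limit around transcript starts, at 1050 bp. It had 5.66, 5.51 and 6.57 for H3K27ac and 6.68, 5.77 and 5.68 for H3K4me1 in replicates 1, 2 and 3, below the median of the regions in all 6 lists. The region 99840 bp from the Ptger4 start had 10.5, 6.27 and 5.75 for H3K27ac and 8.27, 7.29 and 7.30 for H3K4me1 in replicates 1, 2 and 3. The nearest excluded one, 100174 bp from the Cebpb start, had 12.1, 9.60 and 14.0 for H3K27ac and 11.1, 10.3 and 10.7 for H3K4me1. At the window around starts, the Anxa3 region ended 1031 bp from an annotated start and had 11.9, 10.7 and 11.4 for H3K27ac and 11.7, 11.8 and 11.8 for H3K4me1, and an excluded one near Ncoa3, at 987 bp, had 13.3, 12.4 and 14.4 for H3K27ac and 10.9, 11.0 and 10.2 for H3K4me1.

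The number of regions depended on how strictly a peak was defined. Requiring at least 50% of the region to be covered in every list left 585, and requiring a −log10 p of at least 1.3 in the replicate lists left 180. Limits of 50 and 200 kb gave 1658 and 3220 regions.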

How the data were processed

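Peak lists of H3K27ac and H3K4me1 ChIC-Seq, 3 replicates and 1 pooled call for each mark, were analysed. The submitters' processing notes name cutadapt, Bowtie2, MACS2 and GRCm38.p5. Other alignment settings are not given in the sources used here. Per the file headers, the authors called broad peaks with MACS 2.2.7.1 against IgG, with p-value cutoffs of 0.05 and 0.1. The deposited pileup is a coverage signal scaled to the IgG depth. The deposited fold enrichment is a ratio to local background, and the deposited −log10 p-value was used only as a filter, while −log10 q-values were not used. H3K27ac replicates 1, 2 and 3 were called against IgG replicates 1, 2 and 3, and H3K4me1 replicates against IgG replicates 2, 2 and 3. The weakest peaks of the replicate lists rested on 12 to 25.9 fragments, which limits the precision of weak peaks, and the IgG depth limits the p-values.

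Coverage was the pileup times the effective genome size over the product of control fragments and fragment length. Overlap meant at least 1 bp. Genes came from GENCODE mouse release 21, and sequences and repeats those of RefSeq GRCm38.p6, whose chromosome lengths held every peak end. Eligible windows were 500 bp tiles whose location met the same rule on genes, starts and distance. Values in a list are those of the overlapping peak with the highest fold. Tests were exact sign-flip tests over 6 lists and exact permutation tests of 3 against 3, two-sided, with Benjamini-Hochberg adjustment over 5. Alternatives were a p-value filter, 50% coverage, a window of 3 kb, other distance limits, own mark only, other gene assignments and each replicate left out. Regions named were the 10 highest by lowest fold percentile (1 a gene), up to 3 for each gene list, the genes with most regions, the widest regions, the largest runs and those at the limits, with some left out of the text. Further Hand2, Pgr, Dcn, Rgs2 and Rpusd4 regions were named after their values were seen. The regions and gene lists were chosen with earlier results of these data known. Calculations used Python 3.11.15, numpy 2.4.6, pandas 2.3.3 and matplotlib 3.10.9, and were tested on simulated data. The lists did not show which animals gave which replicate.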

Additional observations from a re-analysis of the deposited data

Results flagged for a closer look

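The recovery of intergenic regions near genes relative to those inside genes had opposite signs for the marks. In left-out H3K27ac replicates 1, 2 and 3 the difference was 2.74, 4.88 and 2.18 percentage points, and in left-out H3K4me1 replicates 1, 2 and 3 it was -2.10, -2.42 and -4.50. The means, 3.27 ± 1.43 and -3.01 ± 1.3 (SD, n = 3 each), differed by 6.27 percentage points. An exact permutation test of 3 lists against 3, two-sided and chosen after seeing the data, gave p = 0.1, the smallest it can give. With regions chosen by the lists of their own mark only, regions near genes were recovered in 53.7% and those inside genes in 53.8% in H3K27ac replicate 3, so that the sign pattern did not hold in every list. With peaks of a −log10 p of at least 1.3 only, the signs were those of the main values in all 6 lists, on 207 to 276 regions near genes per list. Recoveries of replicates 2 and 3 of a mark start from the same replicate 1 peaks and are not independent.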

How the results depend on the processing

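Regions numbered 2556 to 3222 when 1 replicate was left out, 585 with 50% of the region covered and 180 with a −log10 p of at least 1.3. The promoter difference between genes with and without a region kept its sign under all alternatives run, from 18.3 to 27.6 percentage points. It was 24.9 to 25.8 with 1 replicate left out, where 5 lists cannot give an exact p below 0.0625. Differences between locations and between marks changed sign under some alternatives. Recovery near genes minus that inside genes was 1.84 with the p-value filter, -0.109 with 50% coverage, -1.43 by own mark only and -0.822 to 1.06 percentage points with 1 replicate left out. Recovery near genes minus that in deserts was 2.05 with the p-value filter, 0.0513 with a 3 kb window and -1.24 to 0.440 with 1 replicate left out. H3K27ac minus H3K4me1 recovery was 1.36 with the p-value filter, -21.9 with 50% coverage and -19.6 to -13.8 with 1 replicate left out. The promoter difference of H3K27ac minus that of H3K4me1 was 11.9 with the p-value filter, 1.13 averaged over 5 groups of genes by intergenic length, 0.759 with every gene within 100 kb, -2.90 with a 3 kb window and -1.07 to 0.285 with 1 replicate left out. The cause of these changes was not tested. With the replicate block, an exact sign-flip over same-numbered lists, the 2 mark comparisons were -15.8 (p = 0.25) and -0.250 percentage points (p = 1), where 3 pairs cannot give less than 0.25. Shared numbers were not known to mark shared animals. Low IgG depth limits the significance of single peaks.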

Other observations

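Chromosome X held few double-marked intergenic regions. There were 46 in 57 Mb of eligible sequence, or 0.807 per Mb, against 3.93 per Mb over the autosomes. Peaks in the same kind of location were sparser on X in every list. H3K27ac replicates 1, 2 and 3 had 19.3, 7.58 and 6.95 such peaks per Mb on X against 47.3, 30.7 and 28.9 on the autosomes. H3K4me1 replicates 1, 2 and 3 had 9.60, 7.86 and 7.85 against 39.4, 29.4 and 30.5. Of pooled H3K27ac peaks in intergenic sequence near genes, 24.5% of 188 on X and 20.3% of 11854 on autosomes carried both marks, while of those inside genes 39.7% of 360 on X and 23.6% of 28865 on autosomes did. Tmsb4x, which encodes thymosin beta 4, accounted for 6 of the 46 regions.

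Lists of different marks correlated more closely where they shared an IgG library. The rank correlation of coverage across the regions was 0.787, 0.793 and 0.772 for the 3 pairs of an H3K27ac and an H3K4me1 list called against the same IgG replicate, and 0.735 to 0.756 for the 6 pairs called against different ones. The pairs at 0.793 and 0.772 also shared their replicate number, and those at 0.787 and 0.793 both held H3K27ac replicate 2. These conditions cannot be told apart here, and the part of the IgG library was not tested.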
